A study of Homo sapiens with 6 samples.

Results

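The genes described here are members of the NF-κB system and inflammatory cytokine genes. They were chosen from 45 listed symbols as those with a mean of at least 0.5 counts per 1000000 counts (CPM) over the 6 libraries, and 40 of the 45 met this rule. Of the other 5, IL24, IL32 and CCL2 were below the limit, the identifier matched to IKBKG was listed at 0 in every library so that no level was read from it, and SOD2 was not matched to an identifier and is not reported. The 40 members fall into 6 classes by role: 5 subunits, 8 inhibitors and feedback regulators, 6 kinases and adaptors, 3 receptors, 15 secreted products and 3 cellular targets. All 40 passed the filter on low counts and were among the 15099 genes tested, out of 63677 identifiers in the table.

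RNA-sequencing was performed on T24, a line of high-grade urothelial carcinoma cells that stems from a single tumour, to look for effects of RBM3 on the transcriptome. RBM3, which codes for a protein that binds RNA, was targeted by a mix of the siRNAs s11858 and s11860 in 3 samples (siRBM3, replicates 3, 4 and 5), while 3 samples (control, replicates 1, 3 and 5) received a non-targeting siRNA. Both groups were seeded for 24 h and exposed to 25 nM siRNA with Lipofectamine 2000 for 4.5 h in medium without serum, and were then left overnight in full medium, so that the transfection procedure is common to all 6 libraries. The siRNA sequences differ between the groups, so that other effects of these sequences cannot be told apart from those of the loss of RBM3. Nothing in the labels says whether the samples of a group were transfected on separate occasions, and p-values therefore measure the spread between these samples, which may be technical.

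NF-κB is a family of dimeric transcription factors built from RELA, RELB, REL and the processed products of NFKB1 and NFKB2. In resting cells the dimers are kept in the cytoplasm by inhibitors of the IκB type, which are phosphorylated by the IκB kinases and degraded when receptors for TNF or IL-1 or sensors of foreign nucleic acid are engaged. Released dimers bind κB sites in the promoters of cytokines, chemokines and adhesion molecules, and also in those of their own inhibitors, which closes a negative feedback loop. In epithelial cells, carcinoma cells included, the secreted products of the pathway attract neutrophils and act on neighbouring cells.

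Many members carry the κB site itself close to their start. The letters GGGA and TTCC with 2 bases of any kind between them, searched on both strands, were found in 14 of the 33 members that have a promoter window (42.4%), in 1.97% of all 27305 genes with a window and in 2.22% of the 10780 tested genes with one. A window spans the 250 bases before to the 50 bases after the start of the gene in RefSeq, GRCh38.p14, and the 7 members LIF, CSF1, C3, RELB, NFKBIE, IER3 and IKBKB were not in this table. The 6 sequences that follow belong to members with lower mean levels in siRBM3 libraries and, last, to NFKBIA, whose group means were nearly equal. They run 5′ to 3′ along the strand of the gene with the matched letters in capitals, and some sites match on both strands at positions 1 base apart, of which the first is shown.
CXCL1 (chr4:73869304-73869333, plus strand): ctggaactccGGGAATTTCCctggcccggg
CXCL2 (chr4:74099254-74099283, minus strand): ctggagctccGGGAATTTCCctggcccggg
NFKBIB (chr19:38899931-38899960, plus strand): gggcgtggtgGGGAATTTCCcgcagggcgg
TNFRSF9 (chr1:7940894-7940923, minus strand): gagctgtggtGGGAATTTCCcatgagaccc
NFKB2 (chr10:102395674-102395703, plus strand): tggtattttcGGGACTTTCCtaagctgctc
NFKBIA (chr14:35404811-35404840, minus strand): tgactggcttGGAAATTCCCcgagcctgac

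The mRNAs of many cytokines also carry AU-rich elements in the 3′ UTR, which are known to shorten the life of the transcript. The octamer TATTTATT was present in the longest annotated 3′ UTR (GENCODE on GRCh37, sense strand only) of 16 of the 40 members (40%), and in 21.8% of the 12149 tested genes with such a UTR. Among the secreted products 10 of 15 held it (66.7%), compared with 6 of the 25 other members (24%), although the median UTR was 772 bases in the secreted class and 1847 bases over all genes. The shorter ATTTA, which every match of the octamer contains, did not set the 40 members as a whole apart, with 75% of members and 75.8% of genes. In the secreted class, however, 14 of 15 held ATTTA (93.3%), compared with 16 of the 25 other members (64%). The sites of the 5 secreted products that had both the octamer and an unadjusted p under 0.05 are printed with the octamer in capitals, as DNA letters along the mRNA strand.
LIF (chr22:30638560-30638589, minus strand): ggcatgatttcTATTTATTatgatatccta
IL1B (chr2:113587575-113587604, minus strand): aaccgcttcccTATTTATTtatttatttgt
IL11 (chr19:55877314-55877343, minus strand): aagccagatctTATTTATTtatttatttca
CXCL1 (chr4:74736387-74736416, plus strand): gagaagtcttcTATTTATTtatttattcat
CXCL2 (chr4:74963310-74963339, minus strand): gagaagtcttcTATTTATTtatttatttat

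The libraries held between 23603992 and 45098612 counts, of which the control libraries had 1.63 to 2.86% on mitochondrial genes and the siRBM3 libraries 2.32 to 9.40%, the highest total and share being those of siRBM3 replicate 3. RBM3 itself measured 298 ± 71.3 CPM in the control group and 67.5 ± 19.6 CPM in the siRBM3 group (mean ± SD, n = 3 each), without overlap, and its log2 fold change was -2.14 (SE 0.24, edgeR quasi-likelihood FDR 0.0822 by Benjamini-Hochberg). Control replicates 1, 3 and 5 held 225, 368 and 301 CPM of RBM3, the lowest being replicate 1. In siRBM3 replicates 3, 4 and 5 its level was 54.1, 90.1 and 58.4 CPM. The keratins KRT7, KRT8, KRT18 and KRT19 were abundant, as known of epithelial cells, whereas KRT5 and CDH1 had means under 0.5 CPM in both groups. Of 8 leukocyte markers, 7 were under 0.5 CPM, and the monocyte gene CD14 made up most of their summed 2.64 to 3.37 CPM in control and 2.65 to 3.27 CPM in siRBM3 libraries.

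Of the 40 members, 35 had a lower and 5 a higher fitted level in siRBM3 than in control libraries, whereas 51.5% of all genes tested were on the lower side. The median log2 fold change of the members was -0.32, compared with -0.01 over all genes. Over the members, the median deviation of log2 CPM from the mean of the 6 libraries was -0.15, 0.29 and 0.32 in control replicates 1, 3 and 5. In siRBM3 replicates 3, 4 and 5 it was -0.05, -0.20 and -0.14, so that control replicate 1 lay within the siRBM3 range. The members are not independent observations, and their count by direction was not tested. An unadjusted p under 0.05 (edgeR quasi-likelihood test) was reached by 9 members on the lower side (22.5%, with 6.58% of all genes tested) and by 0 on the higher side (6.56% of all genes). These 9 were the secreted LIF, IL1B, IL1A, CXCL2, IL11 and CXCL1, the inhibitors NFKBIB and NFKBIE and the receptor TNFRSF9. At the thresholds of 1.5-fold and FDR < 0.01, edgeR called 0 members and 0.0% of the genes in either direction. DESeq2, with the same thresholds, called IL1A alone among the members, while its calls made up 0.574% of the genes on the lower and 0.643% on the higher side.

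In 6 of 40 members the siRBM3 libraries were all lower than the control libraries, namely RELA, NFKBIB, NFKBIE, IL1B, IL11 and LIF, and in 0 members they were all higher. Over all genes tested these shares were 9.93% and 9.98%. For 3 libraries against 3, the smallest two-sided p of an exact permutation test is 0.1, so complete separation is the strongest pattern that the values of 1 gene can show on their own. RNA of a whole culture was measured, in which fewer cells expressing a gene and less RNA of it per cell cannot be told apart.

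**Figure D1:**
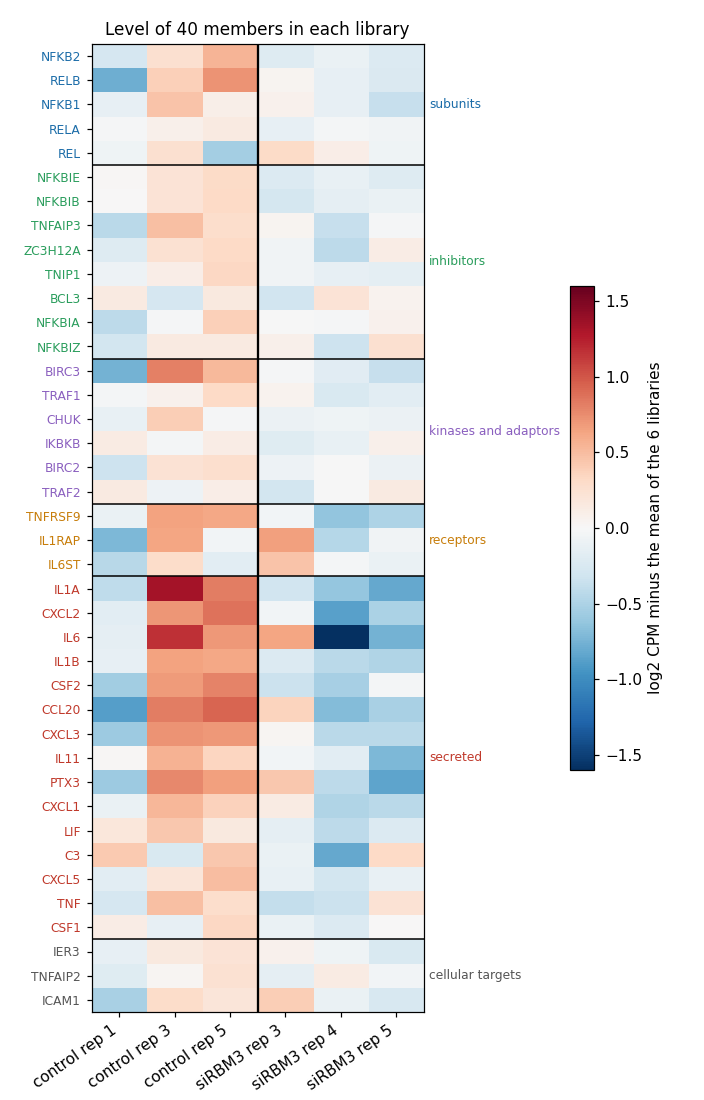
Heat map of the 40 members (vertical axis, grouped by role) in the 6 libraries (horizontal axis), coloured by log2 CPM minus the mean of the 6 libraries, red for higher and blue for lower. The secreted products are mostly red in control replicates 3 and 5, mostly blue in siRBM3 replicates 4 and 5, and mostly blue or pale in control replicate 1, which was the lowest control library for 12 of these 15 genes.

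Among the subunits, 4 of 5 had a lower fitted level in siRBM3 libraries, with a class median of -0.30 on the log2 scale and 0 members at an unadjusted p under 0.05. RELA, which carries the transactivation domain of the classical dimer, was the most abundant subunit per length with 32.7 ± 1.88 CPM per kb of exon in control libraries. Its levels, given here and below in the order of replicates 1, 3 and 5 for control and 3, 4 and 5 for siRBM3, were 168, 180 and 188 CPM in the former and 155, 166 and 163 CPM in the latter. The groups did not overlap, but the difference was small, with a log2 fold change of -0.15 (SE 0.09, edgeR FDR 0.524).

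NFKB2, the precursor of p52 in the non-canonical pathway, was the subunit with the smallest p. It measured 59.8, 86.0 and 106 CPM in the control libraries and 62.2, 67.2 and 61.7 CPM in the siRBM3 libraries. Control replicate 1 was below all 3 siRBM3 libraries, whereas the other control libraries were above them, and the log2 fold change was -0.39 (SE 0.19, edgeR FDR 0.416). NFKB1, the precursor of p50, had a log2 fold change of -0.30 and RELB, the partner of p52, of -0.34, neither with p under 0.05. REL was the only subunit with a higher fitted level in siRBM3 libraries (log2 fold change 0.21), but 33.3% of its exon bases are shared with another gene and its mean CPM was under 8 in both groups.

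The inhibitors and feedback regulators had a median log2 fold change of -0.24, and 7 of 8 were on the lower side. NFKBIB encodes IκBβ (chr19:39390340-39399533, plus strand, GRCh37). Its level was 27.9, 32.4 and 34.5 CPM in the control libraries and 22.8, 25.0 and 25.7 CPM in the siRBM3 libraries. All siRBM3 values lay below all control values, and the log2 fold change was -0.37 (SE 0.12, edgeR FDR 0.271). NFKBIE encodes IκBε (chr6:44225903-44233525, minus strand, GRCh37), and its levels were 19.7, 22.6 and 24.0 CPM compared with 16.7, 17.9 and 16.8 CPM. It was separated in the same way, with a log2 fold change of -0.37 (SE 0.13, edgeR FDR 0.273).

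The third classical inhibitor had overlapping groups, and its difference from NFKBIB and NFKBIE was not tested. NFKBIA, which encodes IκBα, measured 67.7, 89.2 and 118 CPM in control and 89.5, 89.2 and 94.6 CPM in siRBM3 libraries, chosen for this account after its values were seen. The siRBM3 libraries were close together at the middle of a wide control range, and the log2 fold change was -0.01 (SE 0.18, edgeR FDR 0.991). TNIP1, an adaptor that binds ubiquitin and restrains TNF signalling, was the most abundant inhibitor per length at 33.7 ± 4.86 CPM per kb in control libraries. It measured 169, 192 and 225 CPM in control and 172, 164 and 160 CPM in siRBM3 libraries, and the log2 fold change of -0.24 had an edgeR FDR of 0.428. TNFAIP3, the ubiquitin-editing enzyme A20, and ZC3H12A, an endonuclease that degrades cytokine mRNAs, were lower by -0.26 and -0.24 on the log2 scale with overlapping groups, and the nuclear co-regulators BCL3 and NFKBIZ lay within 0.02 of 0.

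All 6 kinases and adaptors had a lower fitted level, with a median log2 fold change of -0.17, and 0 reached an unadjusted p under 0.05 with edgeR. The IκB kinase subunits IKBKB and CHUK had log2 fold changes of -0.15 and -0.18, and the TNF receptor-associated factors TRAF1 and TRAF2 of -0.24 and -0.11. The ubiquitin ligase BIRC2 was the most abundant of the class per length (31.1 ± 6.75 CPM per kb in control libraries), and its levels of 105, 156 and 159 CPM in control spanned the 126, 132 and 125 CPM of the siRBM3 libraries. Its close relative BIRC3, which is itself induced by NF-κB, measured 10.2, 30.4 and 24.8 CPM in control and 17.1, 15.2 and 13.4 CPM in siRBM3 libraries. Control replicate 1 was the lowest of all 6 libraries for BIRC3, and the log2 fold change of -0.52 (SE 0.35) had an edgeR FDR of 0.579.

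The 3 receptors differed among themselves. TNFRSF9, the co-stimulatory receptor 4-1BB, was near the detection limit, with 0.655, 1.15 and 1.13 CPM in control and 0.682, 0.435 and 0.484 CPM in siRBM3 libraries. Control replicate 1 was just below siRBM3 replicate 3, and the log2 fold change was -0.83 (SE 0.35, edgeR FDR 0.356). IL6ST encodes gp130, the signalling chain shared by the receptors for IL-6, IL-11 and LIF, and measured 157, 261 and 191 CPM in control and 293, 208 and 198 CPM in siRBM3 libraries. The groups overlapped, with a log2 fold change of 0.20 (SE 0.21, edgeR FDR 0.744) that was -0.00016 without siRBM3 replicate 3, and 6.61% of its exon bases are shared with another gene. IL1RAP, the second chain of the IL-1 receptor, had a log2 fold change of 0.07.

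Every one of the 15 secreted products had a lower fitted level in siRBM3 libraries, with log2 fold changes from -1.32 to -0.23 and a median of -0.61, and 6 of them had an unadjusted p under 0.05 with edgeR. IL1B, the secreted form of IL-1 that needs cleavage by caspase-1, lies at chr2:113587328-113594393 on the minus strand (GRCh37). Its levels were 221, 380 and 372 CPM in control and 207, 180 and 174 CPM in siRBM3 libraries. No siRBM3 library reached the lowest control library, replicate 1, and the log2 fold change was -0.79 (SE 0.20, edgeR FDR 0.175; DESeq2 FDR 0.0137). Per length, IL1B was at 108 ± 29.7 CPM per kb in control and 62.1 ± 5.95 CPM per kb in siRBM3 libraries.

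IL1A, its neighbour on the same strand (chr2:113531502-113542070), encodes an alarmin that is active without cleavage and had the largest fold change of the 40 members. It measured 92.7, 310 and 217 CPM in control and 99.2, 80.0 and 69.6 CPM in siRBM3 libraries. Here control replicate 1 lay inside the siRBM3 range, while the other control libraries were more than 2 times higher than each siRBM3 library. The log2 fold change was -1.32 (SE 0.39, edgeR FDR 0.236), and IL1A was the member called by DESeq2 (FDR 0.0094). Its DESeq2 call was lost when control replicate 3, control replicate 5, siRBM3 replicate 3, siRBM3 replicate 4 or siRBM3 replicate 5 was left out, and without control replicate 3 the edgeR log2 fold change was -0.90 with an unadjusted p above 0.05.

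The cytokines that signal through gp130 were led by LIF, which is known to maintain stem cells and to act on many tissues. LIF (chr22:30636442-30642748, minus strand, GRCh37) measured 438, 517 and 431 CPM in control and 349, 289 and 331 CPM in siRBM3 libraries. The highest siRBM3 library stayed below the lowest control library, and no other member had a p as small, the log2 fold change being -0.52 (SE 0.11, edgeR FDR 0.145; DESeq2 FDR 0.013). IL11, which drives fibrosis and platelet formation, was at 5.31, 7.77 and 6.67 CPM in control and 5.09, 4.66 and 3.15 CPM in siRBM3 libraries. Its groups were separated by a narrow margin, and the log2 fold change was -0.61 (SE 0.24, edgeR FDR 0.329).

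IL6, the founding member of this family, was among the most variable genes. Its levels were 23.3, 58.1 and 41.5 CPM in control and 39.8, 8.41 and 15.2 CPM in siRBM3 libraries, given here after its values were seen. siRBM3 replicate 3 lay within the control range and the other siRBM3 libraries below it, so that the log2 fold change of -0.94 (SE 0.56, edgeR FDR 0.525) was -1.79 without siRBM3 replicate 3. Of its exon bases, 9.91% are shared with other genes, IL6-AS1 among them.

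The chemokines CXCL1, CXCL2, CXCL3 and CXCL5 attract neutrophils through CXCR2 and lie together on chromosome 4. CXCL2 measured 27.7, 50.8 and 56.9 CPM in control and 30.1, 17.0 and 21.8 CPM in siRBM3 libraries. Control replicate 1 fell between the siRBM3 libraries, and the log2 fold change was -0.97 (SE 0.30, edgeR FDR 0.244; DESeq2 FDR 0.03). CXCL1 was the most abundant secreted product per length at 180 ± 39.3 CPM per kb in control libraries, with 186, 290 and 260 CPM in control and 221, 144 and 149 CPM in siRBM3 libraries. For CXCL1 siRBM3 replicate 3 was above control replicate 1, and the log2 fold change was -0.52 (SE 0.21, edgeR FDR 0.347).

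CXCL3 and CXCL5 had log2 fold changes of -0.65 and -0.38 with edgeR FDR of 0.456 and 0.482. The transcripts of CXCL1, CXCL2 and CXCL3 are closely related, yet of all stretches as long as a read of 75 bases only 0.273%, 2.5% and 2.3% occurred in another of these transcripts, so that few reads could be split between them. CXCL5 shares 17.3% of its exon bases with another gene.

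The remaining secreted products had overlapping groups. CCL20, which attracts Th17 and dendritic cells, had the widest control range of all members, with 1.21, 4.09 and 4.44 CPM in control and 2.95, 1.38 and 1.57 CPM in siRBM3 libraries. Its highest control library was 3.68 times the lowest, followed by IL1A with 3.35 times and BIRC3 with 2.97 times, and the log2 fold change of -0.69 had an edgeR FDR of 0.6. The growth factors of the myeloid lineage CSF2 and CSF1 were lower by -0.76 and -0.23 on the log2 scale, the pentraxin PTX3 by -0.58, complement C3 by -0.38 and TNF, the prototype inducer of the pathway, by -0.35. CSF2, C3 and CCL20 had means of at most 3.25 CPM in either group, and C3 shares 11.7% of its exon bases with another gene.

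**Figure D2:**
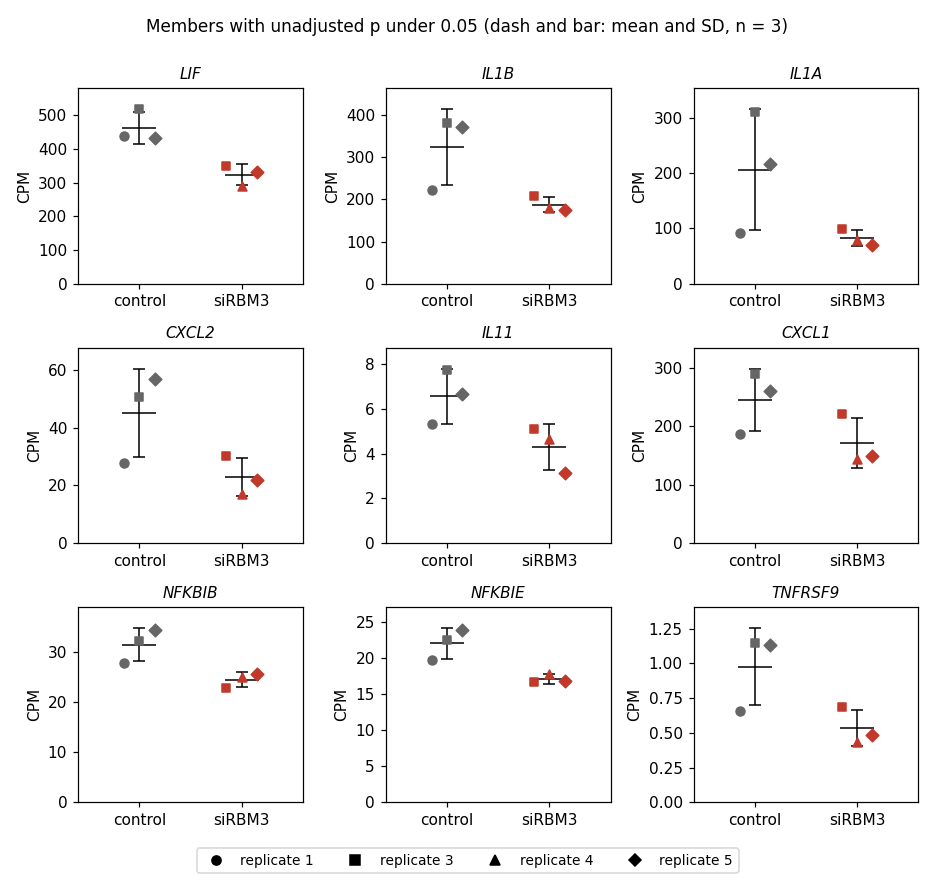
CPM (vertical axes, from 0) of the 9 members with an unadjusted p under 0.05 in the 3 control and 3 siRBM3 libraries; each point is 1 library with its replicate number as symbol, and dashes and bars are the mean and SD. LIF, IL1B, IL11, NFKBIB and NFKBIE are separated, whereas for IL1A, CXCL2, CXCL1 and TNFRSF9 control replicate 1 (circle) reaches into the siRBM3 values.

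The 3 cellular targets gave a median log2 fold change of -0.05. IER3, a stress-response gene, had the highest level per length of all 40 members (252 ± 30.8 CPM per kb in control libraries), and measured 292, 356 and 371 CPM in control and 334, 303 and 270 CPM in siRBM3 libraries. The groups overlapped (log2 fold change -0.17, edgeR FDR 0.616), and 38.9% of its exon bases are shared with other genes. The adhesion molecule ICAM1, of which 25.4% of the exon bases are shared, had equal means of 37.7 ± 10.5 and 37.8 ± 9.27 CPM, and TNFAIP2 had a log2 fold change of -0.05.

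In order of their level per length in control libraries, IER3 was followed by CXCL1, LIF (119 ± 12.4 CPM per kb), IL1B, IL1A (102 ± 54.1) and PTX3 (69.1 ± 29.7). LIF, IL1B and IL1A did not differ from each other beyond their spread. All subunits, inhibitors and kinases were below these 6 genes, with RELA and TNIP1 at about the same level.

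Set side by side, the secreted products had the lowest median log2 fold change of the classes (-0.61), compared with -0.30 for the subunits and -0.24 for the inhibitors. The secreted products were also the lowest under every alternative run, but the order of the subunits and inhibitors was not kept. It was reversed without control replicate 3 (-0.14 and -0.16), control replicate 5 (-0.11 and -0.14) or siRBM3 replicate 5 (-0.19 and -0.27) and with limma-voom (-0.19 and -0.22), and without control replicate 3 the kinases and adaptors, at -0.18, were below both. The shares of members with an unadjusted p under 0.05 and a lower level were 6 of 15 secreted products, 2 of 8 inhibitors and 0 of 5 subunits, where 6.58% of all genes were of this kind (edgeR). Differences between the classes were not tested. Leaving out control replicate 1 turned the receptor median of 0.07 to -0.21, leaving out siRBM3 replicate 3 turned it to -0.30, and the median of the cellular targets was 0.06 when control replicate 5 was left out, whereas those of the other 4 classes were below 0 in each of the 6 fits with 1 library left out.

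**Figure D3:**
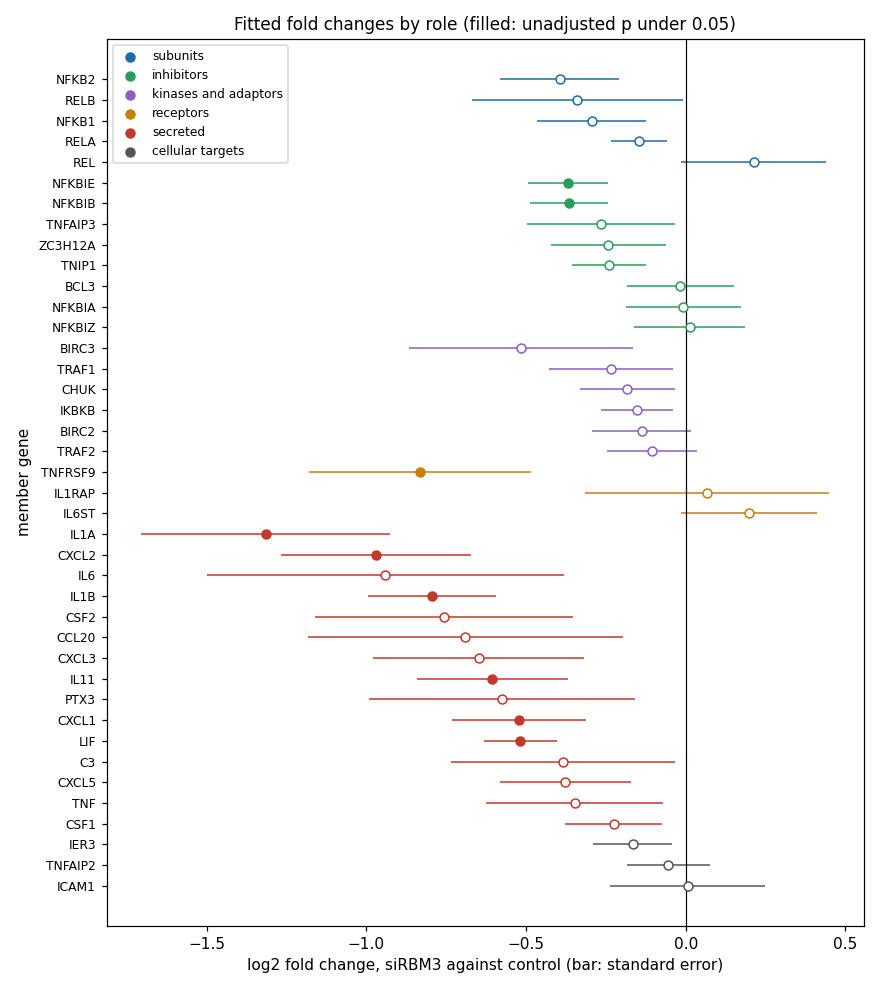
Log2 fold change of siRBM3 against control (horizontal axis, bars are the standard error) for each of the 40 members (vertical axis), coloured by role and filled where the unadjusted p was under 0.05. All 15 secreted products lie left of 0, from -1.32 for IL1A to -0.23 for CSF1, and the filled points are 6 secreted products, 2 inhibitors and TNFRSF9.

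The sequence features printed above were set beside the fold changes as a description. The 14 members with a κB match had a median log2 fold change of -0.37, 4 of them with an unadjusted p under 0.05, and the 19 without a match -0.24, with 3 such members. Within the secreted class the ranges overlapped. They ran from -0.97 (CXCL2) to -0.38 (CXCL5) with a match, and from -1.32 (IL1A) to -0.35 (TNF) with a window but no match. CXCL2 and NFKBIA, both with a match, had -0.97 and -0.01. For the 3′ UTR octamer, the median was -0.45 in the 16 members that hold it and -0.24 in the 24 that do not. Within the secreted class the order was the opposite, with -0.56 in the 10 with and -0.69 in the 5 without the octamer, and IL1A, with the largest fold change, had none. Over all genes the medians were 0.03 with and -0.03 without it.

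The control libraries were examined apart. Control replicate 1 was the lowest of the 3 control libraries for 33 of the 40 members, including 12 of 15 secreted products, 7 of 8 inhibitors and 4 of 5 subunits, compared with 38.1% of all genes tested. On the log2 scale, with 2 counts added, it differed from the mean of the other control libraries by a median of -0.51 over the members and of -0.76 over the secreted products. For control replicates 3 and 5 the same differences were 0.37 and 0.30 over the members and 0.41 and 0.36 over the secreted products. Over all genes the 3 medians were within 0.01 of 0.

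The position of each control library among the siRBM3 libraries differed as well. Control replicate 1 was within the range of the 3 siRBM3 libraries for 16 of the 40 members (36.9% of all genes), control replicate 3 for 11 (39.5%) and control replicate 5 for 5 (40.7%). The share of members was thus near that of all genes for control replicate 1, and below it for control replicates 3 and 5. For the secreted products these numbers were 7, 2 and 0 of 15. Among the siRBM3 libraries the secreted products were nearest to control in replicate 3, which deviated by a median of -0.11 from the mean of the 6 libraries, while replicates 4 and 5 deviated by -0.43 and -0.44.

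**Figure D4:**
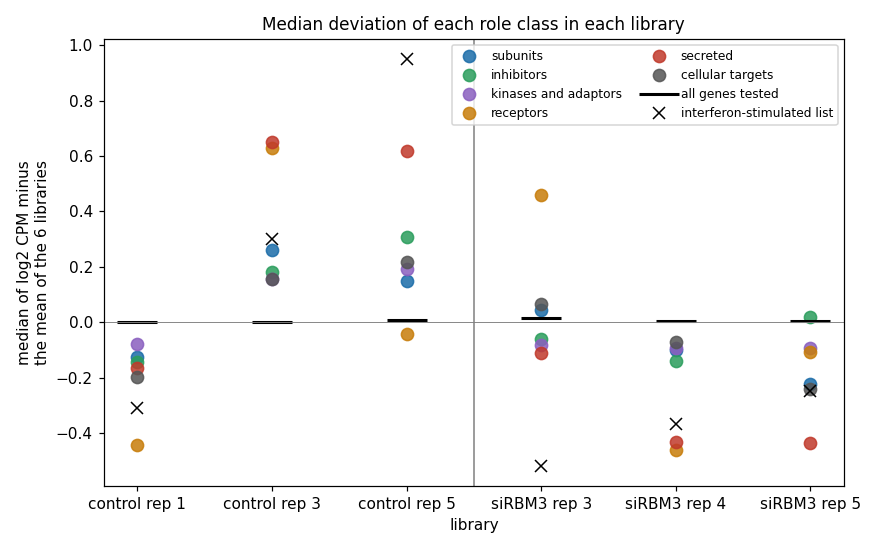
Median over the members of each role class of log2 CPM minus the mean of the 6 libraries (vertical axis) in each library (horizontal axis), with dashes for all genes tested and crosses for the interferon-stimulated list. The secreted products stand at 0.65 and 0.62 in control replicates 3 and 5 but at -0.16 in control replicate 1, the dashes stay near 0, and the crosses are highest in control replicate 5.

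Without control replicate 1, 22 members had an unadjusted p under 0.05 on the lower side (edgeR, 8.64% of all genes) and 0 on the higher side (7.44%), and the 9 members named above were all among the 22. For 28 of the 40 members every siRBM3 library then lay below both control libraries, while 18.3% of all genes tested did so. edgeR again called 0 members at a fold of 1.5 and an FDR below 0.01 (0.00652% of the genes on the lower side), and DESeq2, run in this way after the data were seen, called 7, namely IL1A, IL1B, CXCL2, CXCL3, BIRC3, NFKB2 and RELB (1.31% of the genes on the lower side). The class medians were -0.90 for the secreted products, -0.42 for the subunits and -0.36 for the inhibitors. Nothing in the labels sets this library apart, and the values with all 6 libraries are therefore those reported.

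Leaving out control replicate 3 or 5, on the other hand, left 5 and 4 members lower at an unadjusted p under 0.05 in the edgeR fit (5.27% and 4.51% of all genes). Leaving out siRBM3 replicate 3, 4 or 5 left 9, 6 and 5 (5.35%, 4.58% and 5.00% of all genes). LIF, IL1B and CXCL2 kept an unadjusted p under 0.05 in all 6 of these fits, and IL1A did so in 5 of 6.

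**Figure D5:**
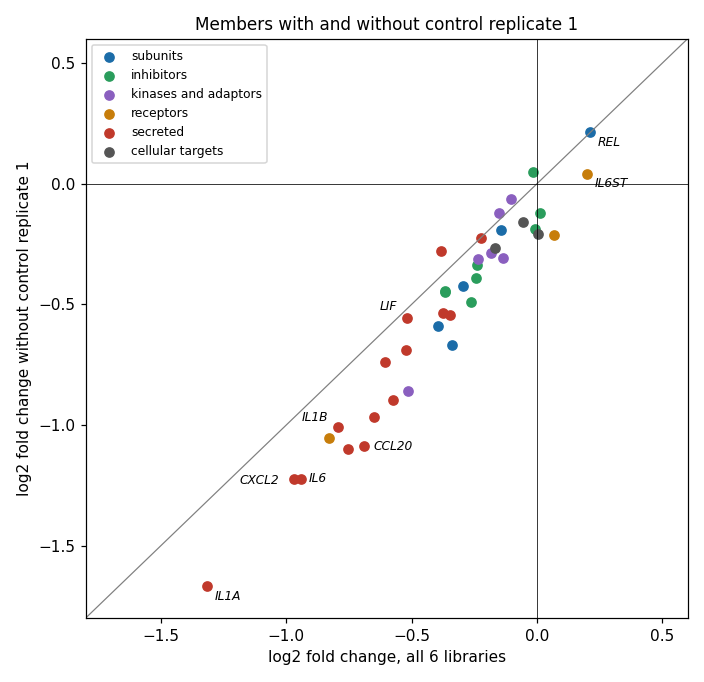
Log2 fold change of the 40 members with all 6 libraries (horizontal axis) and without control replicate 1 (vertical axis), coloured by role, with the diagonal marking equal values. Most points lie below the diagonal, IL1A moving from -1.32 to -1.67 and CCL20 from -0.69 to -1.09, while REL stays at 0.21.

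Beside the members, a list of 62 other genes of the pathway was examined, of which 57 were tested. Of these, 36 were lower and 21 higher in siRBM3 libraries, with a median log2 fold change of -0.08, and 7 were lower and 3 higher at an unadjusted p under 0.05 (edgeR), where 6.58% and 6.56% of all genes were so. Among the 35 upstream genes the median was -0.05, and among the 22 further targets -0.13. edgeR called 0 of the 57, and DESeq2 called IL7R.

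The 2 paralogous F-box proteins that recognise phosphorylated IκB for degradation differed in opposite directions, both with an unadjusted p under 0.05. BTRC measured 29.7, 25.9 and 28.1 CPM in control and 42.2, 40.3 and 43.3 CPM in siRBM3 libraries, all above control, with a log2 fold change of 0.59 (SE 0.11, edgeR FDR 0.0931; DESeq2 FDR 0.000631). FBXW11 measured 83.7, 82.6 and 72.1 CPM in control and 55.8, 67.0 and 56.3 CPM in siRBM3 libraries, all below control, with a log2 fold change of -0.41 (SE 0.11, edgeR FDR 0.202). BTRC passed the FDR limit of DESeq2, but its fold change of 0.58 on the log2 scale in that fit was just short of 1.5-fold, so that it was not called.

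The 3 higher genes are a share of the list no greater than that of all genes. Beside BTRC they were TAB3, an adaptor of the kinase TAK1 (log2 fold change 0.28, edgeR FDR 0.374), and the caspase inhibitor XIAP (0.31, FDR 0.306), both without overlap of the groups. The receptor chain IL7R was at 34.1, 55.4 and 42.9 CPM in control and 22.4, 22.5 and 19.7 CPM in siRBM3 libraries, separated in full, with a log2 fold change of -1.03 (SE 0.18, edgeR FDR 0.0928; DESeq2 FDR 7.61e-05). PLAU, the urokinase gene, had a log2 fold change of -0.76 (edgeR FDR 0.175) and the anti-apoptotic BCL2L1 of -0.34 (FDR 0.23), but 31.0% and 41.3% of their exon bases are shared with other genes.

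CXCL8, a neutrophil chemokine and a classical target, was not separated. Its levels were 220, 1181 and 467 CPM in control and 725, 327 and 173 CPM in siRBM3 libraries, and the log2 fold change of -0.61 (SE 0.67, edgeR FDR 0.756) became 0.25 without control replicate 3.

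A list of 11 interferon-stimulated and RNA-sensing genes, which respond to transfected RNA in many cells, was also lower in siRBM3 libraries. IFNB1 was under 0.5 CPM, and the other 10 were all lower in siRBM3 libraries, with a median log2 fold change of -0.81. An unadjusted p under 0.05 on the lower side (edgeR) was reached by 8 of the 10 and by 6.58% of all genes tested. Summed over the list, control replicates 1, 3 and 5 held 432, 659 and 1138 CPM, compared with 375 to 434 CPM in the siRBM3 libraries, so that control replicate 1 was again within the siRBM3 range. The median deviation of the list from the mean of the 6 libraries was -0.31, 0.30 and 0.95 in control replicates 1, 3 and 5. The members had the same order in control (-0.15, 0.29 and 0.32), though with a smaller step from replicate 3 to 5. The siRBM3 libraries were ordered differently. The list was lowest in siRBM3 replicate 3 at -0.52, where the members were at -0.05, the highest of the siRBM3 libraries. OASL, an antiviral protein related to the oligoadenylate synthetases, was nevertheless separated, with 38.0, 38.4 and 51.3 CPM in control and 17.2, 23.0 and 22.8 CPM in siRBM3 libraries. IFIT2 and HERC5 were also lower in every siRBM3 library than in every control library, while the groups of the other tested genes of the list overlapped. The summed epithelial markers ranged from 5077 to 5881 CPM in control and from 4223 to 4321 CPM in siRBM3 libraries, a sum made up mostly of KRT7 and KRT8. Of the 7 epithelial markers tested, 4 were lower and 3 higher, with a median of -0.14. KRT7 and KRT8 were lower in every siRBM3 library than in every control library (log2 fold change -0.38 and -0.37). The transcription factor GATA3 and the adhesion molecule EPCAM were higher in every siRBM3 library than in every control library (log2 fold change 0.37 and 0.24). The 2 endothelial markers matched, mostly CDH5, ranged from 27.9 to 33.7 CPM in control and from 33.8 to 40.8 CPM in siRBM3 libraries. The part of these lists and of the mitochondrial share in the levels of the NF-κB genes was not tested.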

How the data were processed

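RNA of 3 control and 3 siRBM3 samples of T24 was sequenced (TruSeq Stranded mRNA, single-end 75 bases). The authors trimmed reads with BBDuk, aligned them to hg19/GRCh37 with STAR 2.5.2a, marked duplicates with Picard and deposited raw, unnormalized featureCounts counts per Ensembl gene. The annotation release, strand setting and treatment of duplicates were not given in the sources used here. Reads of overlapping genes therefore cannot be told apart. Groups and replicate numbers came from the sample titles. Of 63677 identifiers, 55665 were matched to a symbol through GENCODE 44 lifted to GRCh37.

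Genes were filtered with filterByExpr (minimum count 10, total 15), scaled by TMM, fitted over all 15099 genes with edgeR 4.0.16 (quasi-likelihood, robust; R 4.3.3) and adjusted by Benjamini-Hochberg. CPM are TMM-scaled. Calls needed a fold of 1.5 and an FDR below 0.01. Members and lists were chosen with earlier results of these data known. Given with every library were members with p under 0.05, the smallest p and highest level per kb of each class, and the 3 widest control ranges; of the pathway list, up to 4 genes per direction by p, and CXCL8. Alternatives were DESeq2 1.42.0, limma-voom 3.58.1, RLE factors, library size only, no filter, a replicate block and each library left out; sequences and overlaps were read with Python 3.11.15. On simulated counts for the siRBM3 against control comparison (15099 genes), edgeR called 48.0% of genes changed by 1 and 89.7% of those changed by 2 on the log2 scale, with 2 unchanged genes called, and DESeq2 58.0% and 91.0% with 18. These counts were drawn for each gene apart at its fitted dispersion, without shifts that many genes of a library share. The shares therefore need not hold for the real libraries, where RBM3, with a log2 fold change of -2.14, had an edgeR FDR of 0.0822. No pair of libraries in a group was close to identical (chi-square per degree of freedom 27.7 to 141).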

Additional observations from a re-analysis of the deposited data

How the results depend on the processing

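Members with an unadjusted p under 0.05 were lower in siRBM3 libraries under every alternative run, except for IL6ST, higher with DESeq2 without control replicate 3, but their number varied. The 9 members lower at an unadjusted p under 0.05 compare with 14 without a filter on low counts (4.73% of genes), which hold 8 of the 9 but not IL1A, and with 4 to 22 when 1 library is left out (4.51 to 8.64% of genes). The members called, 0 with edgeR, were 1 with DESeq2 (IL1A, 0.574% of genes) and 2 with edgeR without a filter (CXCL2 and IL1B, 0.505%), and with DESeq2 and 1 library left out, added after the data were seen, 7 without control replicate 1 (1.31%), 2 without siRBM3 replicate 3 (CXCL2 and IL6, 0.373%) and 0 in the other 4 fits. Members separated below control, 6, were 13 when scaled by library size only (11.4% of genes) and 6 to 28 with 1 library left out (13.2 to 18.3%), and those above, 0, were 0 to 2 (13.5 to 17.1%). With 1 library left out, the median was between -0.42 and -0.11 for the subunits and between -0.36 and -0.14 for the inhibitors (leaving out control replicate 1 and control replicate 5), and ran from -0.30 to -0.13 for the kinases and adaptors and from -0.90 to -0.47 for the secreted products. Of the genes named by rule, IL6ST and CXCL8 changed sign with 1 library left out, IL6ST ranging from -0.00016 (without siRBM3 replicate 3) to 0.42 and CXCL8 from -1.32 to 0.25 (without control replicate 3). Scaling by library size only also moved the genes at an unadjusted p under 0.05 from 990 higher and 993 lower to 611 and 1130. The causes were not tested.

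The groups share only the replicate numbers 3 and 5, and nothing in the labels says that a number marks a shared batch. Deviations from the group means over genes correlated by 0.528 for the samples numbered 3 and by 0.0884 for those numbered 5. For pairs with unlike numbers the correlations ran from -0.364 (control replicate 1 and siRBM3 replicate 3) to 0.201 (control replicate 1 and siRBM3 replicate 5). The value for number 5 lies within this range. With the replicate number as a block, a fit with 1 residual degree of freedom that takes nothing from control replicate 1 and siRBM3 replicate 4, 24 members had an unadjusted p under 0.05 on the lower side (2031 of 15099 genes) and 5 were called (191 genes on the lower side).

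TNFRSF9, CSF2 and C3 had the lowest levels, with group means under 2 CPM and SE of 0.35, 0.40 and 0.35, and the part of counting error in these was not tested.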
